A study of Mus musculus with 6 samples.

Results

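The immune cells of SOX17KO and Control mouse colon tumours collected at 2 weeks were compared, with 1 library per genotype. A cell barcode was kept if it held at least 200 detected genes and at most 10% of its unique molecular identifiers (UMIs, each standing for 1 captured RNA molecule) came from mitochondrial genes. That left 4783 Control and 3013 SOX17KO cells, 7796 of the 33862 cells kept across the 6 libraries of the series. Both groups consisted of live cells that were EpCAM-negative and CD45-positive after sorting, so epithelial tumour cells were depleted and leukocytes enriched. Each condition was a pool of tumours from 5 mice, and whether each collection used its own 5 is unknown here. The sources used here do not give the alleles of Control and SOX17KO, the other mutations of the tumours, or the strain, age and sex of the animals. Cells had been released with collagenase at 37 °C, and libraries were 3′ 10x Genomics v3 libraries.

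SOX17 is a transcription factor of the endoderm lineage that also acts on Wnt target genes in the gut. Immune cells of a colon tumour include T cells, which recognise antigen through their receptors and are divided into CD8 killer cells, CD4 helper cells and Foxp3-expressing regulatory cells. They also include natural killer (NK) cells, B cells, neutrophils, dendritic cells that present antigen, and monocytes that enter from blood and can become macrophages. Cytokines such as interferon-gamma pass between these cells and change the genes that each expresses.

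The Control library held 27480696 UMIs in the cells kept and the SOX17KO library 18028992, with medians of 4162 and 4634 UMIs per cell. A total of 6 barcodes occurred in both libraries. Sox17 itself gave 10 UMIs in 6 Control cells and 3 UMIs in 2 SOX17KO cells, too few in sorted immune cells to check the genotype labels. Ptprc, which encodes CD45, stood at 1746 counts per 1000000 UMIs of the library or gate (CPM) in Control and 1726 CPM in SOX17KO, with UMIs in 4418 and 2747 cells. Epcam gave 101 and 71 UMIs. With 1 library per genotype no test between genotypes is possible: all intervals are exact 95% intervals that cover counting error only, and differences between mice, sorts and libraries were not measured. Intervals of CPM ratios treat each UMI as a separate draw. Variation between cells is not in them, so they are too narrow where few cells hold most UMIs of a gene. Of 6 sex-linked genes, 4 had enough UMIs to compare and none differed 2-fold.

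Cells were assigned to a class, here called a gate, when they had UMIs of at least 40% of the class's marker genes and led the related classes. The gates placed 1939 Control and 708 SOX17KO cells as T cells, a share of 40.5% (39.1 to 41.9) against 23.5% (22 to 25.1). The difference lay mainly in CD8 T cells, with 986 cells or 20.6% (19.5 to 21.8) in Control and 276 cells or 9.16% (8.15 to 10.2) in SOX17KO. Foxp3-negative CD4 T cells were 7.88% (7.13 to 8.68) and 7.00% (6.12 to 7.97), and Foxp3 T cells 2.05% (1.67 to 2.49) and 1.69% (1.26 to 2.22), with overlapping intervals. Within T cells the CD8 share was 50.9% (48.6 to 53.1) in Control and 39.0% (35.4 to 42.7) in SOX17KO, and the CD4 share 19.4% (17.7 to 21.3) and 29.8% (26.5 to 33.3). Shares of a library are bound to each other, since a larger share of one class lowers those of all others.

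B cells, neutrophils, macrophages and fibroblasts took larger shares of the SOX17KO library. B cells were 19 of the Control cells, 0.397% (0.239 to 0.620), and 172 of the SOX17KO cells, 5.71% (4.91 to 6.60), a share 14.4 times as large. Neutrophils were 3.66% (3.14 to 4.23) and 6.90% (6.02 to 7.87). Macrophages were 7.42% (6.69 to 8.20) and 12.5% (11.4 to 13.7), while monocytes were 14.1% (13.1 to 15.1) and 15.6% (14.3 to 16.9) with overlapping intervals. Fibroblast-gated cells, which the CD45 sort should have removed, were 1.00% (0.741 to 1.33) and 2.46% (1.93 to 3.07). NK cells stood at 4.20% (3.65 to 4.81) and 5.41% (4.63 to 6.28).

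The dendritic cell gates did not separate the libraries. Conventional dendritic cells were 2.76% (2.31 to 3.26) in Control and 3.32% (2.71 to 4.02) in SOX17KO, the cross-presenting cDC1 subset 1.05% (0.777 to 1.38) and 1.06% (0.728 to 1.50), and mature regulatory dendritic cells 0.983% (0.723 to 1.30) and 1.23% (0.866 to 1.69). Cells that met the markers of more than 1 class, and so were set aside as mixed, made up 7.34% and 7.00%, with median UMIs of 10064 and 10232. A further 568 and 319 cells met no gate. Since a gate is a threshold on marker counts, cells near it move in or out. Asking for 1 more marker left 18 and 161 B cells and 941 and 261 CD8 T cells. It left 325 and 356 macrophages and 152 and 188 neutrophils. Other gates lost more, with 140 of 201 and 131 of 163 NK cells left. Of conventional dendritic cells 91 of 132 and 70 of 100 were left, and of cDC1 39 of 50 and 28 of 32. Of 61 and 25 T cells gated by the gamma-delta receptor gene Trdc, 34 and 19 were left.

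**Figure D1:**
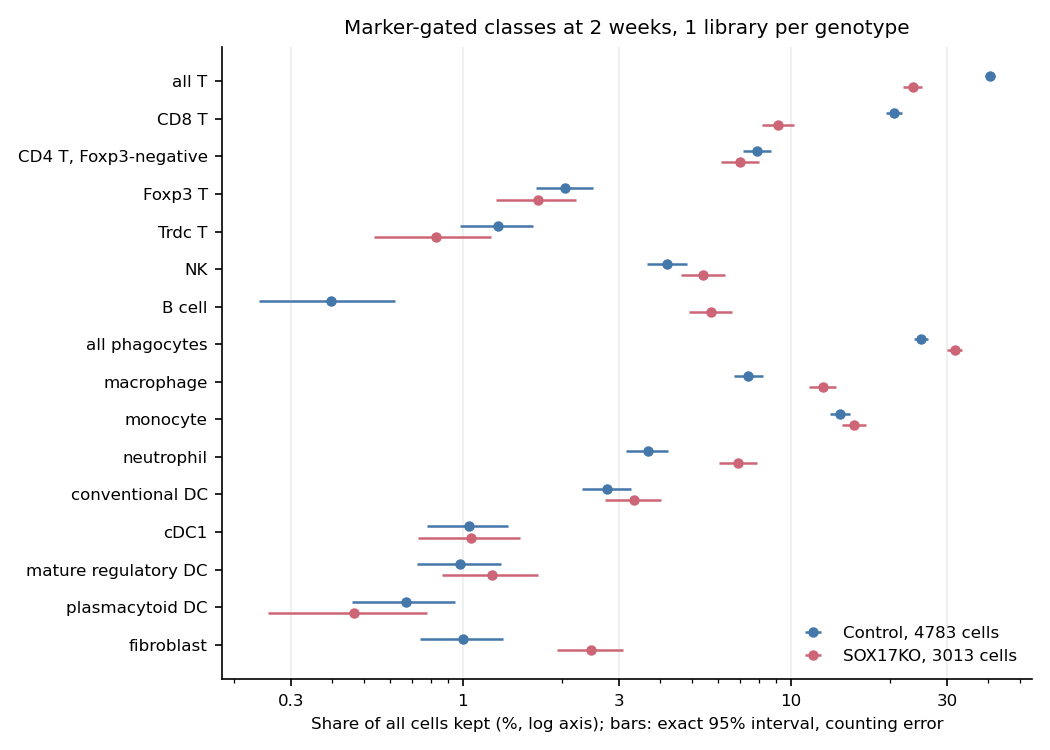
Share of all cells kept (x axis, percent, log scale) for marker-gated classes in the Control library (blue) and the SOX17KO library (red) at 2 weeks, with exact 95% intervals for counting error. T cells and CD8 T cells lie to the right in Control, while B cells (0.397% against 5.71%), neutrophils, macrophages and fibroblasts lie to the right in SOX17KO.

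The genotype pairs of the other collections gave other values for these classes. In the 1-week pair T cells made up 1.53% (Control) and 1.70% (SOX17KO), B cells 0.328% and 0.342%, and macrophages 30.4% and 30.1%, whereas neutrophils were 4.32% and 8.98%. In the pair without a time label T cells were 50.4% and 64.9%, B cells 3.59% and 4.51%, and neutrophils 5.00% and 0.157%. A higher neutrophil share in SOX17KO was thus present at 1 and 2 weeks and not in the untimed pair, and a lower T cell share was present only at 2 weeks.

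Summed over all cells, 606 of 11996 genes with at least 100 UMIs over both libraries were at least 2-fold higher in SOX17KO, 5.05% of the genes compared, and 168 were at least 2-fold lower, 1.40%. Of the 606 higher genes, 268 had more of their SOX17KO UMIs in the fibroblast gate than in any other. For 89 this was macrophages, for 71 the cells set aside as mixed, for 53 neutrophils and for 52 B cells. Of the 168 lower genes, 148 had most of their Control UMIs in CD8 T cells. When the classes of both libraries were weighted to the Control shares, 217 genes were higher and 56 lower. Mixed and ungated cells each counted as a class in this weighting, so it does not remove differences in the make-up of those cells.

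B cell genes were the clearest of these. Cr2 (chromosome 1, 195136811 to 195176716, mm10), which encodes the complement receptor CD21 of mature B cells, had 18 UMIs in 9 Control cells and 309 UMIs in 103 SOX17KO cells, or 0.655 and 17.1 CPM, a ratio of 26.2 (16.3 to 44.7) that was 3.17 with the classes weighted to the Control shares. Fcer2a, which encodes the low-affinity IgE receptor CD23, had 5 and 124 UMIs in 5 and 65 cells, and its weighted ratio was 8.46. Of these UMIs, 0 in Control and 19 in SOX17KO lay outside the B cell gate, where the weighting does not correct for B cell number. Of 11 follicular B cell genes, 8 were at least 2-fold higher over all cells, against 5.05% of all genes compared. Their median log2 ratio was 2.52, against -0.01 for all genes compared. The immunoglobulin joining chain gene Jchain gave 8 and 811 UMIs, but 571 of the latter came from 1 cell and only 4 cells of each library held any. The plasma cell gate took 2 SOX17KO cells and 0 Control cells, and a count of 0 among 4783 cells allows a share of up to 0.0627%.

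Within the B cell gate most cells of both libraries held UMIs of Ighd and Bank1. Ighd, the heavy chain of IgD carried by B cells before class switching, had a UMI in 14 of 19 Control and 137 of 172 SOX17KO B cells. Cr2 had one in 6 of 19 and 93 of 172, and its level in the gate was 156 and 470 CPM. Fcer2a had one in 5 of 19 and 56 of 172, at 64.8 and 170 CPM. Bank1, a B cell receptor adaptor, was found in 19 of 19 and 168 of 172. Among genes tied to B cell activation, Cd83 had a UMI in 17 of 19 and 158 of 172, Cd86 in 16 of 19 and 115 of 172, and Bcl6, also a regulator of germinal centre cells, in 7 of 19 and 73 of 172. S1pr2, a receptor of germinal centre B cells, which divide and mutate their receptors, had no UMI in B-gated cells of either library, and at 3 counts over the cells this allows a share of cells with a UMI of up to 1.74% in SOX17KO and 15.8% in Control, which is no limit on cells that express it. Mki67 had 1 UMI in all. No B-gated cell held a UMI of the T cell gene Cd3e.

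Lists bound to other classes also differed over all cells. Of 22 proliferation genes, all had intervals below 1 in SOX17KO, against 31.5% of all genes compared, and 7 were at least 2-fold lower, against 1.40%. Among these 7 was Birc5, a regulator of chromosome segregation, at 78.9 and 31.3 CPM. It was still 1.77-fold lower with the classes weighted to the Control shares. Neutrophil and myeloid products were higher over all cells: S100a8, a subunit of the antimicrobial protein calprotectin, had 2822 UMIs in 214 Control cells and 7601 in 293 SOX17KO cells, or 103 and 422 CPM, and Il1b, an inflammatory cytokine, had 1107 and 2451 CPM. Their weighted ratios were 2.20 and 1.64. All 12 complement genes had intervals above 1, against 31.2% of all genes compared, with C1qa at 88.6 and 221 CPM and a weighted ratio of 1.68.

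Heat shock genes were lower in SOX17KO in most gates. These genes encode chaperones that refold damaged proteins, and they are switched on by heat shock factor 1, which binds repeats of the motif nGAAn. Hspa1a (chromosome 17, 34969190 to 34972156, minus strand, mm10) and Hspa1b (34956436 to 34959238) encode the same inducible Hsp70 protein. The genes lie side by side, and the 250 bases before each start are printed below 5′ to 3′. These bases lie outside the transcripts, so their likeness does not show whether counts of the genes can be exchanged. Hspa1a has chr17:34972157-34972406 and Hspa1b chr17:34959239-34959488, both on the minus strand, from the RefSeq table of build GRCm38.p6. Capitals mark a pair of facing heat shock units, GAANNTTC or TTCNNGAA searched on both strands.
Hspa1a: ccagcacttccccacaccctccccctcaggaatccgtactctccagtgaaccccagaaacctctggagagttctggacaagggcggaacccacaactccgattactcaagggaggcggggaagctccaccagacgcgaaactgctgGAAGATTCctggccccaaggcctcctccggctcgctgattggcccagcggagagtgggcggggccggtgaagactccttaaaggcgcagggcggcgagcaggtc
Hspa1b: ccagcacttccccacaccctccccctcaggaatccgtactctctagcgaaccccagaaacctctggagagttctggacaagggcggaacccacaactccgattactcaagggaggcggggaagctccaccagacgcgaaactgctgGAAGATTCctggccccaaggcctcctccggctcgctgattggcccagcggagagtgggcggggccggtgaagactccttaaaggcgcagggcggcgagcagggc
The windows were the same at 247 of 250 bases (98.8%), and each held 1 match, 104 bases before the start. Of 27025 promoters in the table, 3489 (12.9%) held the motif. Of the 12 heat shock genes, 9 were in the table and 6 of these held it. Hspe1 held the most, with 3 matches, and Hspa5, Hspd1 and Dnajb1 held none. Whether the motif goes with the ratios below was not tested.

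In monocytes Hspa1a had 2288 Control UMIs and 921 SOX17KO UMIs, in 334 of 674 and 153 of 469 cells, or 803 and 371 CPM, 2.16-fold lower (2.00 to 2.34). Hspa1b stood at 998 and 530 CPM there, 1.88-fold lower (1.76 to 2.01). Reads of the pair may have been split between them, which was not tested, so each value is uncertain, although both genes lay on the same side. In Foxp3-negative CD4 T cells Hspa1a stood at 376 and 176 CPM, 2.13-fold lower (1.85 to 2.47), although among cells gated after thinning its log2 ratio was -0.34 and that of Hspa1b turned to 0.26. In CD8 T cells it stood at 243 and 153 CPM, 1.59-fold lower (1.42 to 1.79), and in macrophages at 589 and 348 CPM, 1.70-fold lower (1.54 to 1.87). Hspe1, the co-chaperone of mitochondrial Hsp60, did not follow, with 126 and 122 CPM in monocytes and 227 and 217 CPM in CD8 T cells.

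Counted as a list, 11 heat shock genes could be compared in monocytes, of which 9 had intervals below 1 and none above, with a median log2 ratio of -0.50, where 16.7% of all genes compared had intervals below 1. The matching figures were 11 of 11 below 1 and -0.54 in Foxp3-negative CD4 T cells, 10 of 11 and -0.43 in CD8 T cells, 8 of 11 and -0.43 in macrophages, 8 of 11 and -0.27 in conventional dendritic cells, 7 of 11 and -0.27 in NK cells and 6 of 9 and -0.33 in Foxp3 T cells. Of all genes compared, 19.8% had intervals below 1 in these CD4 T cells, 14.7% in CD8 T cells, 15.6% in macrophages, 13.9% in conventional dendritic cells, 10.5% in NK cells and 12.5% in Foxp3 T cells. Neutrophils did not share this: of 5 genes compared, 1 had an interval above 1 and none below, with a median of 0.47, where 17.9% of all genes had intervals above 1 and 14.8% below. The median of all genes compared lay between -0.01 and 0.05 in every one of these gates. Immediate early genes, a set of transcription factors induced within minutes of stimulation or tissue dissociation, did not go the same way. Of 16 such genes in monocytes 12 had intervals above 1, against 15.4% of all genes, and of 13 in Foxp3-negative CD4 T cells 12 did, against 19.5%.

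**Figure D2:**
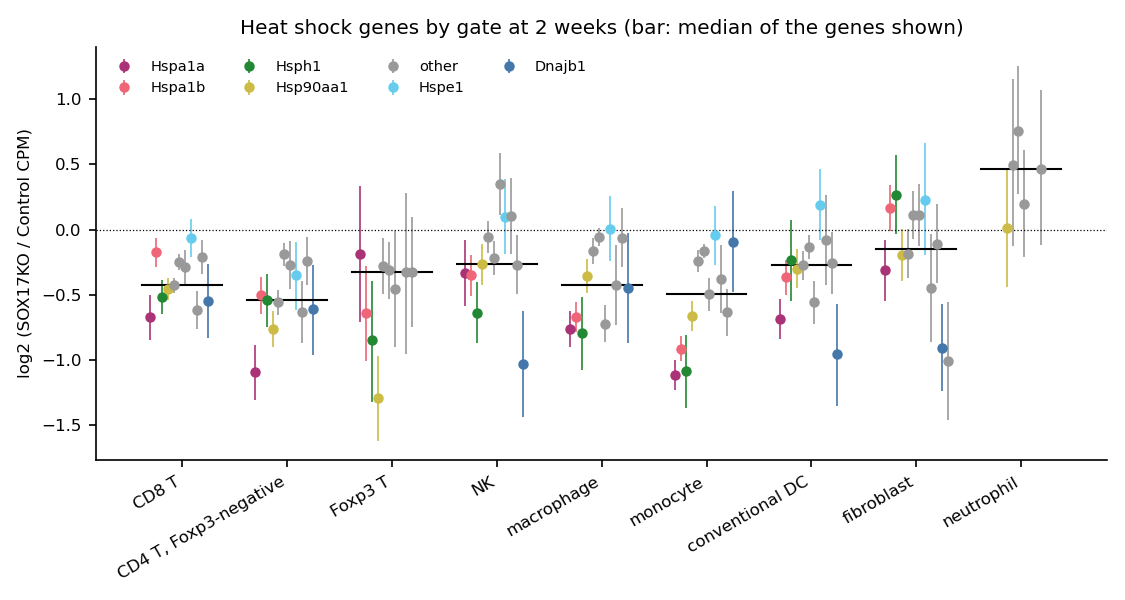
Log2 ratio of SOX17KO to Control CPM (y axis) for each heat shock gene with at least 100 UMIs, by gate (x axis); points are genes, vertical bars exact 95% intervals and black bars the gate's median. The medians lie below 0 in 8 gates, from -0.54 in Foxp3-negative CD4 T cells to -0.15 in fibroblasts, and at 0.47 in neutrophils.

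CD8 T cells, a smaller share of the SOX17KO library, held differences in expression in both directions. Of all genes compared in this gate, 16.4% had intervals above 1 and 14.7% below. In this gate 56 of 8122 genes were at least 2-fold higher in SOX17KO, 0.689%, and 56 were at least 2-fold lower, also 0.689%. Gzmb, Ifng and Pdcd1 stayed within 2-fold. Gzmb, the protease granzyme B, stood at 1366 and 1267 CPM, and Ifng, the gene of interferon-gamma, at 263 and 182 CPM, 1.45-fold lower (1.30 to 1.62). Pdcd1, which encodes the inhibitory receptor PD-1, stood at 266 and 184 CPM, 1.45-fold lower (1.30 to 1.62). Of 14 cytotoxic genes compared, 2, the granzyme genes Gzma and Gzmf, were at least 2-fold higher and none lower; of 15 inhibitory receptor and exhaustion genes, 1 was higher and none lower.

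Genes outside these lists were among those past 2-fold in CD8 T cells. Tff1 (chromosome 17, 31161395 to 31165277, mm10), a secreted trefoil peptide best known from gastric mucus, had 753 UMIs in 226 of 986 Control cells and 65 UMIs in 35 of 276 SOX17KO cells. Its level was 96.3 and 29.9 CPM, 3.22-fold lower in SOX17KO (2.50 to 4.21). Chchd10, a mitochondrial protein, stood at 109 and 41.0 CPM, 2.66-fold lower (2.14 to 3.35), and Dut, an enzyme of nucleotide synthesis, at 416 and 209 CPM. On the higher side, Itga1, the collagen-binding integrin chain CD49a of resident T cells, stood at 76.4 and 187 CPM, a ratio of 2.45 (2.15 to 2.78). Ikzf2, the transcription factor Helios, stood at 278 and 592 CPM with UMIs in 311 and 107 cells, a ratio of 2.13 (1.98 to 2.28) and 1.92 without the top cell of each library. Gzma, granzyme A, stood at 421 and 858 CPM in 203 and 67 cells. Cd7, an immunoglobulin-family receptor of T cells, stood at 31.2 and 82.4 CPM in 158 and 55 cells, and the histone gene Hist1h2ap at 43.0 and 149 CPM in 165 and 60 cells.

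Chemokine genes were lower in SOX17KO CD8 T cells. Of 26 such genes, 6 could be compared and 5 of these had intervals below 1, against 14.7% of all genes, with a median log2 ratio of -0.92, which was -0.33 with a minimum of 30 UMIs. Ccl1, a ligand of the receptor CCR8, had 948 UMIs in 101 Control cells and 64 UMIs in 12 SOX17KO cells, or 121 and 29.5 CPM, 4.12-fold lower (3.19 to 5.39). Ccl3, which attracts myeloid cells and T cells, stood at 296 and 116 CPM, 2.54-fold lower (2.23 to 2.90). Xcl1, the attractant of cDC1, stood at 190 and 102 CPM, 1.87-fold lower (1.62 to 2.16). Genes of naive and central memory T cells leaned the other way, with 7 of 10 intervals above 1, against 16.4% of all genes compared, and none below; among them Tcf7, a transcription factor of memory and stem-like T cells, stood at 76.2 and 114 CPM.

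To compare shares of positive cells at equal depth, each cell was thinned at random to 1000 UMIs. Gzmb then had a UMI in 42.5% (39.4 to 45.7) of Control and 38.5% (32.8 to 44.6) of SOX17KO CD8 T cells, against 0% and 0.588% of B cells, which should lack it. Mki67, a marker of dividing cells, had one in 17.9% (15.5 to 20.4) and 15.3% (11.2 to 20.1). The intervals of the libraries overlapped for all 7 genes read in CD8 T cells. Median UMIs of these cells were 6097 and 6262.5 before thinning, so thinning dropped most of their UMIs. Overlap at this depth does not show that the shares are alike. Gating the cells after thinning left 307 and 81 CD8 T cells, in which Gzmb and Ifng turned to the other side, with log2 ratios of 0.33 and 0.49, Tcf7 turned to -0.25 and the median of the naive and central memory list to -0.24. The Tff1 ratio was then -0.51 and the Ikzf2 ratio 0.29 on the log2 scale. Before thinning, the shares were 64.3% and 65.2% for Gzmb and 60.0% and 44.6% for Pdcd1. They were 53.1% and 41.3% for Havcr2, 45.9% and 35.5% for Ifng and 48.3% and 39.5% for Prf1. Mki67 had 40.9% and 35.5%, and Tcf7 23.6% and 29.3%.

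Foxp3-negative CD4 T cells held a broader set of differences, mostly towards lower values. In this gate 43 of 5576 genes were at least 2-fold higher in SOX17KO, 0.771%, and 190 were at least 2-fold lower, 3.41%. Among cells gated after thinning the lean was weaker, with 36 genes higher and 51 lower. Genes of cell division made up a visible part of the lower ones: all 20 proliferation genes compared had intervals below 1, against 19.8% of all genes. Of the 20, 14 were at least 2-fold lower, and the median log2 ratio was -1.28. Mki67 had 952 UMIs in 112 of 377 Control cells and 233 UMIs in 44 of 211 SOX17KO cells, or 376 and 175 CPM, 2.15-fold lower (1.86 to 2.49). Birc5 had UMIs in 71 and 13 cells and was 3.98-fold lower (2.86 to 5.69), and Bub1, a kinase of the spindle checkpoint, had 99 UMIs in 50 cells and 7 UMIs in 4 cells.

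After thinning, Mki67 had a UMI in 16.2% (12.6 to 20.3) of Control and 6.16% (3.32 to 10.3) of SOX17KO CD4 T cells, against 0.781% and 1.06% of neutrophils. The CD8 gate showed a smaller difference in the same list, with intervals of 14 of 22 proliferation genes below 1, against 14.7% of all genes. None was past 2-fold and the median was -0.27. The share of cells with Mki67 was thus lower in SOX17KO beyond counting error among CD4 T cells, whereas the intervals of the CD8 gate overlapped.

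Genes with the opposite direction in CD4 T cells included products of type 2 helper cells, which act on eosinophils and epithelium. Il5 (chromosome 11, 53720794 to 53725106, mm10), the eosinophil growth factor, had 38 UMIs in 7 Control cells and 237 UMIs in 9 SOX17KO cells, a ratio of 11.9 (8.40 to 17.2). Il13, which lies in the same cytokine cluster and acts on epithelium, had 179 UMIs in 25 cells and 295 UMIs in 21 cells, a ratio of 3.13 (2.59 to 3.80) and 2.44 without the top cell of each library. Il4, also of the cluster, went the other way with 255 UMIs in 13 cells and 24 UMIs in 11 cells, 106 of the Control UMIs being in 1 cell. Of the Il5 UMIs, 77 of the 237 in SOX17KO were in 1 cell. Among the 126 and 53 CD4 T cells gated after thinning, the log2 ratio of Il5 was 1.08 and that of Il4 turned to 0.36.

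Other CD4 differences were spread over many cells. Furin (chromosome 7, 80388585 to 80405436, mm10), a protease that activates the TGF-beta precursor and other proteins, had 875 UMIs in 208 of 377 Control cells and 1498 UMIs in 146 of 211 SOX17KO cells, or 345 and 1124 CPM, a ratio of 3.26 (2.99 to 3.54). Cd40lg, the helper signal to B cells and dendritic cells, stood at 91.9 and 170 CPM, a ratio of 1.85 (1.53 to 2.23). After thinning it had a UMI in 7.69% (5.21 to 10.9) of Control and 21.8% (16.4 to 28.0) of SOX17KO cells, and in 0 of 354 and 0 of 372 macrophages. Il1rl1, the receptor for interleukin-33, stood at 48.9 and 103 CPM in 52 and 46 cells. Gata3, the master regulator of type 2 helper cells, differed less, at 256 and 320 CPM.

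Hypoxia and glycolysis genes were higher in SOX17KO CD4 T cells, with 17 of 22 intervals above 1, against 19.5% of all genes, none below, and a median log2 ratio of 0.38. Ero1l, an oxidase of the endoplasmic reticulum, stood at 191 and 627 CPM in 154 and 110 cells, a ratio of 3.29 (2.94 to 3.69). Chemokine genes were lower, with a median log2 ratio of -1.07 that was -0.72 when centred within groups of transcript length. Ccl3 stood at 429 and 122 CPM in 96 and 31 cells, 3.51-fold lower (2.97 to 4.16), and Ccl4 at 904 and 430 CPM. Ccl9, a chemokine mainly known from myeloid cells, had 152 UMIs in 23 cells and 4 UMIs in 4 cells. Of 13 cytotoxic genes compared, 8 had intervals below 1 and 2 above, against 19.8% and 19.5% of all genes. The median log2 ratio of the cytotoxic list was -0.33, and only -0.06 when centred by transcript length. Prf1, the pore-forming perforin, stood at 48.5 and 13.5 CPM in 32 and 11 cells. Hs6st3, a heparan sulfate sulfotransferase, had 417 UMIs in 42 Control cells and 25 UMIs in 4 SOX17KO cells, 8.77-fold lower (5.86 to 13.7), and the linker histone gene Hist1h1b stood at 286 and 58.5 CPM in 80 and 15 cells.

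**Figure D3:**
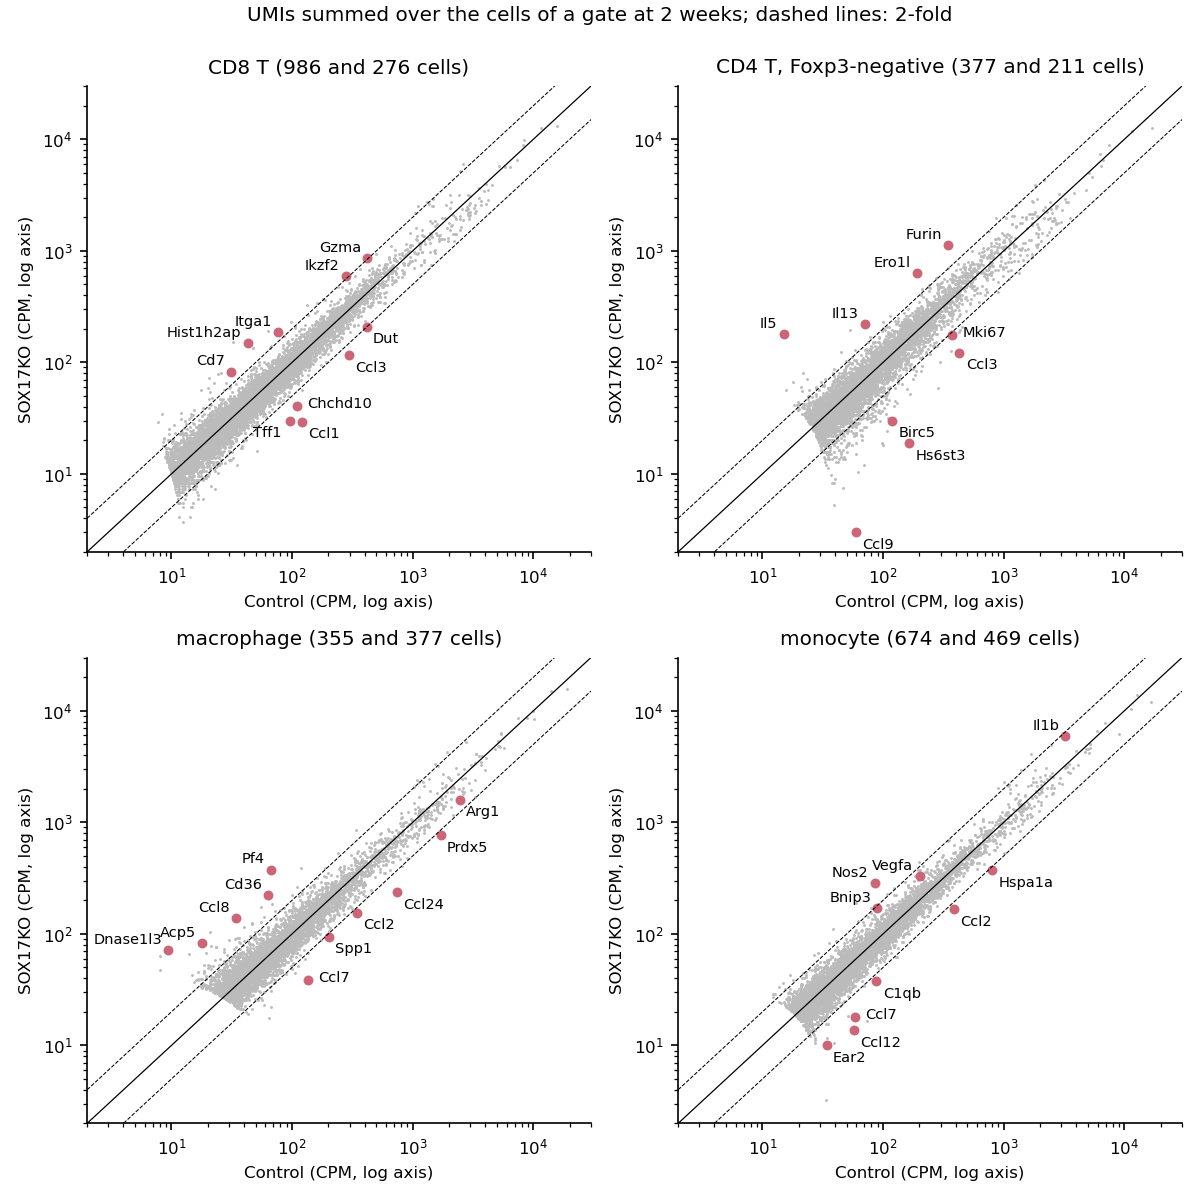
CPM in Control (x axis) against SOX17KO (y axis), both on log scales, for genes with at least 100 UMIs in 4 gates at 2 weeks; grey points are genes, red labelled points are some of the genes named in the text, the solid line marks equality and dashed lines a 2-fold difference. Furin, Ero1l and Il5 lie above the 2-fold line in CD4 T cells, Pf4 and Cd36 in macrophages and Nos2 in monocytes, while Ccl2 and Ccl7 lie below it in both phagocyte gates.

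Foxp3 T cells are the regulatory cells that restrain other T cells. Foxp3 stood at 454 and 409 CPM, but every cell of the gate was selected by a Foxp3 UMI, so this likeness is in part set by the gate. Ctla4, an inhibitory receptor they use, stood at 2143 and 2244 CPM. Of 12 regulatory T effector genes compared, 6 had intervals that left out 1, with 3 above and 3 below, against 27.5% of all genes compared on either side, and none was past 2-fold. In this gate of 98 and 51 cells, 18 of 1634 genes were at least 2-fold higher, 1.10%, and 7 at least 2-fold lower, 0.428%. Trat1, an adaptor of the T cell receptor, stood at 105 and 348 CPM in 19 and 23 cells, and Hsp90aa1, a chaperone, at 842 and 345 CPM in 73 and 34 cells, 2.44-fold lower (1.96 to 3.07).

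In the gate of T cells with a UMI of the gamma-delta receptor gene Trdc, 17 of 798 genes were at least 2-fold higher, 2.13%, and 19 lower, 2.38%. With 61 and 25 cells, single cells decided several of these: all 438 Control UMIs of Gzmc were in 1 cell. Il17a, the cytokine that recruits neutrophils, had 40 UMIs in 8 Control cells and 67 UMIs in 5 SOX17KO cells.

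NK cells differed little in Gzma, a killing gene. It stood at 4321 and 3291 CPM, 1.31-fold lower (1.25 to 1.38), with a UMI after thinning in 75.6% (69.0 to 81.5) and 75.9% (68.6 to 82.3) of cells. In this gate 26 of 3427 genes were at least 2-fold higher in SOX17KO, 0.759%, and 8 were lower, 0.233%. The genes with the largest ratios were granzymes of 1 cell. Gzmd, a granzyme of strongly activated lymphocytes, had 895 UMIs in SOX17KO of which 886 lay in 1 cell, and 601 of 608 UMIs of Gzme and 1335 of 1338 of Gzmf were likewise in 1 cell each. Hypoxia and glycolysis genes were higher, with 12 of 15 intervals above 1, against 11.5% of all genes compared, none below, and a median log2 ratio of 0.72 that was 0.32 without the top cells. Eno1, a glycolytic enzyme, stood at 89.3 and 235 CPM in 55 and 73 cells, a ratio of 2.63 (2.02 to 3.47) and 1.91 without the top cells.

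Macrophages of SOX17KO had higher Pf4 and Cd36 and lower Prdx5, Ccl24 and Ccl7. In this gate 79 of 5033 genes were at least 2-fold higher in SOX17KO, 1.57%, and 22 at least 2-fold lower, 0.437%. Pf4 (chromosome 5, 90772435 to 90773383, mm10), a chemokine of platelets and resident macrophages, had 100 UMIs in 30 of 355 Control cells and 832 UMIs in 79 of 377 SOX17KO cells. Its level was 67.0 and 376 CPM, a ratio of 5.61 (4.55 to 6.97) that was 4.37 without the top cells. Cd36, a fatty acid and lipoprotein receptor, stood at 63.6 and 221 CPM in 28 and 93 cells, a ratio of 3.47 (2.78 to 4.37). Acp5, an acid phosphatase of osteoclasts and macrophages, had UMIs in 17 and 65 cells, and Dnase1l3, a secreted nuclease, in 7 and 38 cells. The fractalkine receptor gene Cx3cr1 stood at 27.5 and 73.1 CPM, a ratio of 2.66 (1.88 to 3.85), and Stab1, a scavenger receptor, at 24.8 and 52.8 CPM. The collagenase gene Mmp13 had 31 UMIs in 10 cells and 228 UMIs in 21 cells, a ratio of 4.96 (3.40 to 7.47). On the lower side, Prdx5, a peroxide-reducing enzyme, stood at 1707 and 765 CPM in 319 and 317 cells, 2.23-fold lower (2.10 to 2.38), and Hp, the haemoglobin-binding haptoglobin, at 66.3 and 22.1 CPM in 55 and 34 cells. The summed monocyte markers in this gate stood at 5694 CPM in Control and 3912 CPM in SOX17KO, and their part in these differences was not tested.

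The genes that define the macrophage gate differed little: C1qa stood at 1155 and 1314 CPM, Mrc1, the mannose receptor CD206, at 513 and 457 CPM and Trem2, a lipid-sensing receptor, at 197 and 196 CPM. Cells were selected by UMIs of such genes, so this likeness is in part set by the gate. Of 15 lipid-associated macrophage genes compared, 9 had intervals above 1, against 17.2% of all genes compared, and 1 below, with a median log2 ratio of 0.18. The one below was Spp1, which encodes osteopontin and stood at 202 and 94.4 CPM in 56 and 47 cells, 2.14-fold lower (1.79 to 2.56). Arg1, the arginine-degrading enzyme often used to mark suppressive macrophages, stood at 2449 and 1593 CPM, 1.54-fold lower (1.47 to 1.61). After thinning, Arg1 had a UMI in 47.2% (41.9 to 52.5) of Control and 36.0% (31.1 to 41.1) of SOX17KO macrophages, against 0.305% and 0.364% of CD8 T cells. Among the 124 and 158 macrophages gated after thinning, the log2 ratio of Spp1 was 0.01, that of Pf4 1.38 and that of Ccl24 -0.69.

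Chemokine genes in macrophages were split, with 6 of 17 intervals above 1 and 8 below. Of all genes compared, 17.2% had intervals above 1 and 15.6% below. Ccl8 was higher, with 51 UMIs in 13 Control cells and 308 UMIs in 41 SOX17KO cells, a ratio of 4.07 (3.02 to 5.59). Ccl24, an attractant of eosinophils, was lower, with 1097 UMIs in 123 cells and 523 UMIs in 80 cells, or 735 and 236 CPM, 3.11-fold lower (2.80 to 3.46). The monocyte attractants Ccl2 and Ccl7, which lie side by side on chromosome 11, stood at 344 and 154 CPM and at 135 and 38.4 CPM, 2.23-fold (1.94 to 2.56) and 3.53-fold (2.72 to 4.60) lower. Cxcl9, the interferon-gamma-induced attractant of T cells, stood at 788 and 467 CPM, 1.69-fold lower (1.55 to 1.83). Of 21 interferon-gamma response genes 10 had intervals below 1 and 2 above, and of 20 MHC class I presentation genes 13 had intervals below 1, against 15.6% of all genes, and none above, but no gene of either list was past 2-fold.

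Monocytes of SOX17KO, like macrophages, had lower Ccl2 and Ccl7, and they had higher Nos2 and Il1b. In this gate 28 of 5770 genes were at least 2-fold higher in SOX17KO, 0.485%, and 23 lower, 0.399%. Nos2 (chromosome 11, 78920787 to 78960254, mm10), the inducible nitric oxide synthase, had 243 UMIs in 61 of 674 Control cells and 711 UMIs in 104 of 469 SOX17KO cells. Its level was 85.2 and 286 CPM, a ratio of 3.36 (2.90 to 3.90). Il1b stood at 3246 and 5962.5 CPM, a ratio of 1.84 (1.79 to 1.89), and Tnf, another inflammatory cytokine, at 49.5 and 89.8 CPM. Ccl2 stood at 388 and 166 CPM, 2.34-fold lower (2.08 to 2.62), Ccl7 at 58.2 and 18.1 CPM and Ccl12, another monocyte attractant of that cluster, at 57.2 and 13.7 CPM. Lower too were Ear2, a ribonuclease gene of eosinophils and patrolling monocytes, with 97 UMIs in 32 cells and 25 UMIs in 13 cells, and C1qb, a complement subunit made by macrophages, at 88.1 and 37.5 CPM. Gated after thinning, 347 and 279 monocytes gave log2 ratios of -0.83 for Ccl7 and -0.23 for C1qb.

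Of 24 hypoxia and glycolysis genes compared in monocytes, 21 had intervals above 1, against 15.4% of all genes, and none below, though none was past 2-fold, and the median log2 ratio was 0.32. Vegfa, the vascular growth factor, stood at 201 and 329 CPM in 218 and 203 cells, a ratio of 1.64 (1.47 to 1.82), and Bnip3, a mitophagy receptor induced by low oxygen, at 89.8 and 171 CPM. Macrophages did not show this: 2 of their 24 genes had intervals above 1 and 8 below, against 17.2% and 15.6% of all genes, with a list median of -0.10. Arg1 also differed between these gates, at 752 and 1012 CPM in monocytes, a ratio of 1.34 (1.27 to 1.43), where it was lower in macrophages. The monocyte markers Ly6c2 and Ccr2, which helped to select these cells, stood at 892 and 957 CPM and at 1378 and 1472 CPM.

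**Figure D4:**
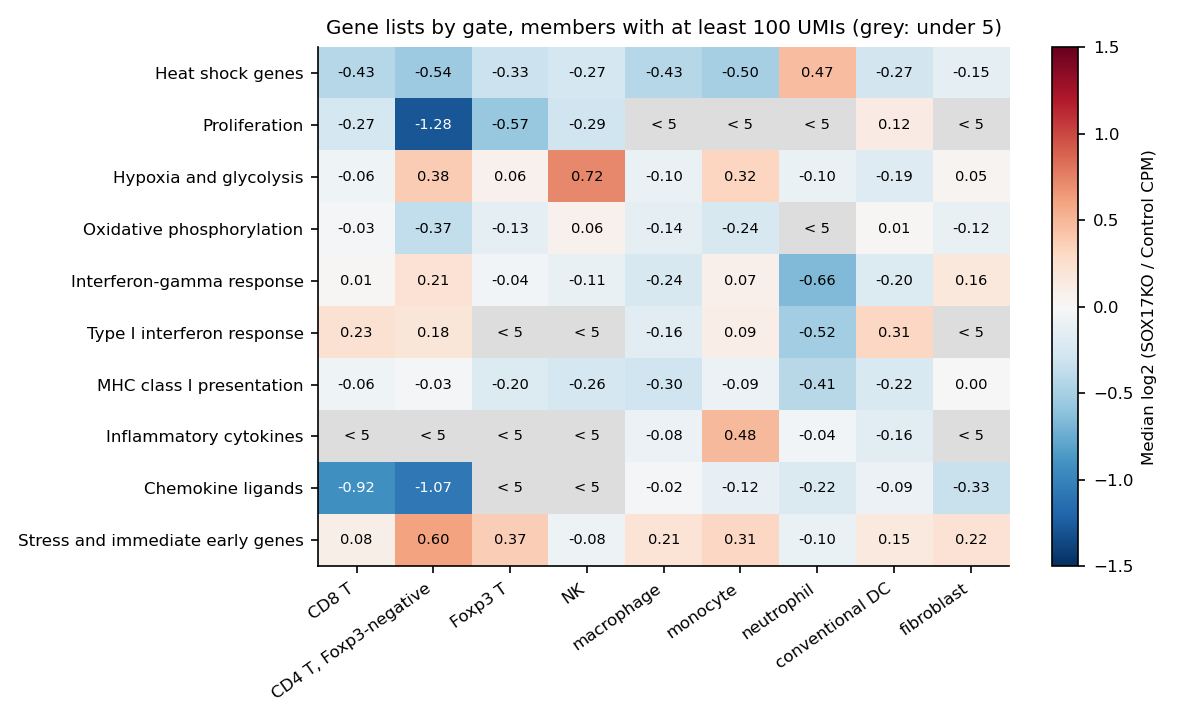
Median log2 ratio of SOX17KO to Control CPM (colour and number) for 10 gene lists (rows) in 9 gates (columns) at 2 weeks, over list members with at least 100 UMIs; grey cells had under 5 such members. The proliferation median is lowest in Foxp3-negative CD4 T cells (-1.28), the interferon-gamma response median lowest in neutrophils (-0.66), and hypoxia genes are highest in NK cells (0.72), CD4 T cells (0.38) and monocytes (0.32). The NK value rests in part on single cells and is 0.32 without the top cells.

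Neutrophils, the class with the fewest UMIs per cell (medians of 1330 and 1919.5), had a larger share in SOX17KO and lower values of interferon-related genes. In this gate 26 of 1219 genes were at least 2-fold higher in SOX17KO, 2.13%, and 11 lower, 0.902%. Of 10 interferon-gamma response genes compared, 9 had intervals below 1, against 14.8% of all genes, and none above, with a median log2 ratio of -0.66. Cxcl10, a T cell attractant, had 621 UMIs in 57 of 175 Control cells and 508 UMIs in 51 of 208 SOX17KO cells, or 2366 and 1159 CPM, 2.04-fold lower (1.81 to 2.30). Igtp, an interferon-induced GTPase, stood at 400 and 162 CPM, 2.47-fold lower (1.81 to 3.39), and Gbp2, another, at 2919 and 1786 CPM. The type I interferon list gave 7 of 10 intervals below 1, and the MHC class I list 8 of 12, with none above in either. The summed monocyte markers in the gate stood at 1242 and 710 CPM and the macrophage markers at 87.6 and 22.8 CPM, and their part in these differences was not tested.

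Granule and antimicrobial genes of neutrophils were higher. S100a8 stood at 9088 and 15957 CPM, a ratio of 1.76 (1.68 to 1.84) or 0.81 on the log2 scale. Its transcript has 498 bases, and the 13 genes under 500 bases compared in this gate had a median log2 ratio of 0.78. Slpi, of 876 bases, an inhibitor of neutrophil proteases, stood at 1071 and 1983 CPM, a ratio of 1.85 (1.62 to 2.13) and 1.51 without the top cells, and genes of 500 bases or more and under 1000 had a median of 0.04. Of 8 antimicrobial genes compared, 5 had intervals above 1, against 17.9% of all genes, and none below. Il1b differed little within the gate, at 19884 and 21241 CPM, in contrast to the ratio of 2.21 over all cells. Chst11, a chondroitin sulfotransferase, stood at 461 and 1075 CPM in 58 and 136 cells, a ratio of 2.33 (1.90 to 2.87), and Fmnl2, an actin regulator, at 926 and 402 CPM in 61 and 58 cells, 2.31-fold lower (1.89 to 2.82).

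Among conventional dendritic cells 31 of 3945 genes were at least 2-fold higher in SOX17KO, 0.786%, and 22 lower, 0.558%. Tnfsf9, the ligand of the costimulatory receptor 4-1BB, stood at 141 and 289 CPM in 42 and 52 cells, and Fabp5, a fatty acid binding protein, at 350 and 97.4 CPM in 66 and 29 cells, 3.59-fold lower (2.92 to 4.46). Only 12 and 10 cells passed this gate after thinning, and there Tnfsf9 turned to a log2 ratio of -2.62 and the median of the heat shock list to 0.63. MHC class I presentation genes had 10 of 19 intervals below 1 and none above, and MHC class II genes 5 of 10 below and none past 2-fold. Of all genes compared in the conventional dendritic cell gate, 13.9% had intervals below 1. In the cDC1 gate, of 50 and 32 cells, 21 of 1632 genes were at least 2-fold higher, 1.29%, and 6 lower, 0.368%; Cxcl9 stood there at 200 and 70.0 CPM in 18 and 8 cells. In mature regulatory dendritic cells, of 47 and 37 cells, 16 of 955 genes were higher, 1.68%, and 6 lower, 0.628%. Ifitm1, an interferon-induced membrane protein, stood there at 64.6 and 532 CPM in 7 and 11 cells (log2 ratio 3.04, and 1.60 with 1 more marker required). The migration receptor gene Ccr7, a marker that helped to select these cells, stood at 1913 and 2034 CPM.

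The fibroblast gate, of 48 and 74 cells, had the largest share of genes past 2-fold of the gates named here: 91 of 2124 higher, 4.28%, and 41 lower, 1.93%. Rgs5 had 21 Control and 270 SOX17KO UMIs in the gate, and Car3 118 and 0. The gate does not tell apart kinds of cell that share its collagen markers, and the part of their mix in these differences was not tested. Ptprc had a UMI in 4 and 8 of these cells, and Col1a1, a collagen chain, stood at 9678 and 7894 CPM. Cxcl13, the attractant of B cells in lymphoid tissue, had 56 UMIs in 3 Control cells, 50 of them in 1 cell, and 536 UMIs in 13 SOX17KO cells. Ptgs2, the inducible cyclooxygenase, stood at 70.1 and 293 CPM in 9 and 30 cells, and Sfrp2, a secreted Wnt modulator, at 342 and 49.2 CPM in 21 and 13 cells, 6.95-fold lower (4.78 to 10.3). Negr1, a cell adhesion molecule, had UMIs in 5 and 28 cells, and Angptl7, a secreted angiopoietin-like protein, had 209 and 81 UMIs in 9 cells of each library. With 1 more marker required, the log2 ratio of Ptgs2 was 1.05 in place of 2.06. After thinning, 75 and 97 cells passed the gate, and Col1a1 turned to a log2 ratio of 0.15 and the median of the heat shock list to 0.05.

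The same genes were read in the pairs of the other collections, which share no library with the 2-week pair. The 3 interferon-induced genes named in neutrophils were lower in SOX17KO at 1 week as well: Cxcl10 stood at 3301 CPM in Control and 1796 CPM in SOX17KO, Igtp at 356 and 236 CPM and Gbp2 at 3186 and 2083 CPM, from 188 to 2908 UMIs each. Their S100a8 was higher in SOX17KO in that pair too, at 11644 and 16131 CPM.

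Macrophages and monocytes, which were abundant at 1 week, had other values there for the genes above. Pf4 stood at 957 and 1178 CPM in 1-week macrophages, Cd36 at 165 and 131 CPM, Ccl24 at 2361 and 2259 CPM and Arg1 at 1840 and 2252 CPM. Nos2 stood at 91.2 and 101 CPM and Hspa1a at 301 and 264 CPM in 1-week monocytes, while Ccl7 was 2.01-fold lower, at 484 and 241 CPM. In CD8 T cells of the untimed pair, Tff1 stood at 85.0 and 2.03 CPM, Ccl1 at 350 and 14.3 CPM and Ccl3 at 499 and 49.1 CPM, the same side as at 2 weeks. Gzma and Ikzf2 lay on the other side, at 203 and 8.48 CPM and at 857 and 175 CPM. In untimed CD4 T cells Furin stood at 136 and 306 CPM, Cd40lg at 117 and 468 CPM and Hspa1a at 246 and 74.2 CPM, as at 2 weeks, whereas Mki67 stood at 57.7 and 73.5 CPM.

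Markers of other classes inside a gate differed between the libraries in several gates, and their part in the results was not tested. The summed T cell markers in the macrophage gate stood at 45.5 and 20.8 CPM, in monocytes at 21.7 and 12.1 CPM, in conventional dendritic cells at 9.57 and 2.59 CPM and in fibroblasts at 28.0 and 3.99 CPM, lower in SOX17KO each time, against 2990 and 2988 CPM in CD8 T cells. They were lower in SOX17KO NK cells too, at 381 and 260 CPM, and higher in neutrophils, at 3.81 and 13.7 CPM. The summed phagocyte markers in the CD8 gate stood at 16.4 and 20.7 CPM, against 8222 and 8239 CPM in macrophages. Monocyte markers, among them Ly6c2 and Ccr2, stood at 891 and 1217 CPM in the CD8 gate and at 624 and 984 CPM in Foxp3-negative CD4 T cells, higher in SOX17KO in both. This sum cannot tell RNA of monocytes from expression of these genes by the T cells themselves. MHC class II genes, which T cells of mice do not express, were nonetheless lower in SOX17KO CD8 T cells with 4 of 6 at least 2-fold lower, against 0.689% of all genes. Cd74 had 397 UMIs in 83 Control cells, 99 of them in 1 cell. Removing the barcodes with the highest doublet scores turned that list's median log2 ratio from -1.20 to 0.24.

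A small set of genes was higher in SOX17KO in every gate where they could be compared. Of 2290 genes with at least 100 UMIs in 8 or more gates, 14 were at least 1.5-fold higher in each gate where they could be compared and none was 1.5-fold lower in all. Of the 14, 11 encode ribosomal proteins, and their median transcript length was 683.5 bases, against 3362 bases for all genes compared. Rpl38 stood at 1001 and 2170 CPM over all cells and Rps29 at 1298 and 2773 CPM. Genes with transcripts under 500 bases had a median log2 ratio of 0.23 over all cells, 0.54 in CD8 T cells and 0.59 in Foxp3-negative CD4 T cells. The ratio did not follow length in order: genes of 500 bases or more and under 1000, the class in which the median of the 14 lies, had medians of -0.17, -0.23 and -0.40, and genes of 4000 bases or more had 0.03, 0.06 and 0.09.

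**Figure D5:**
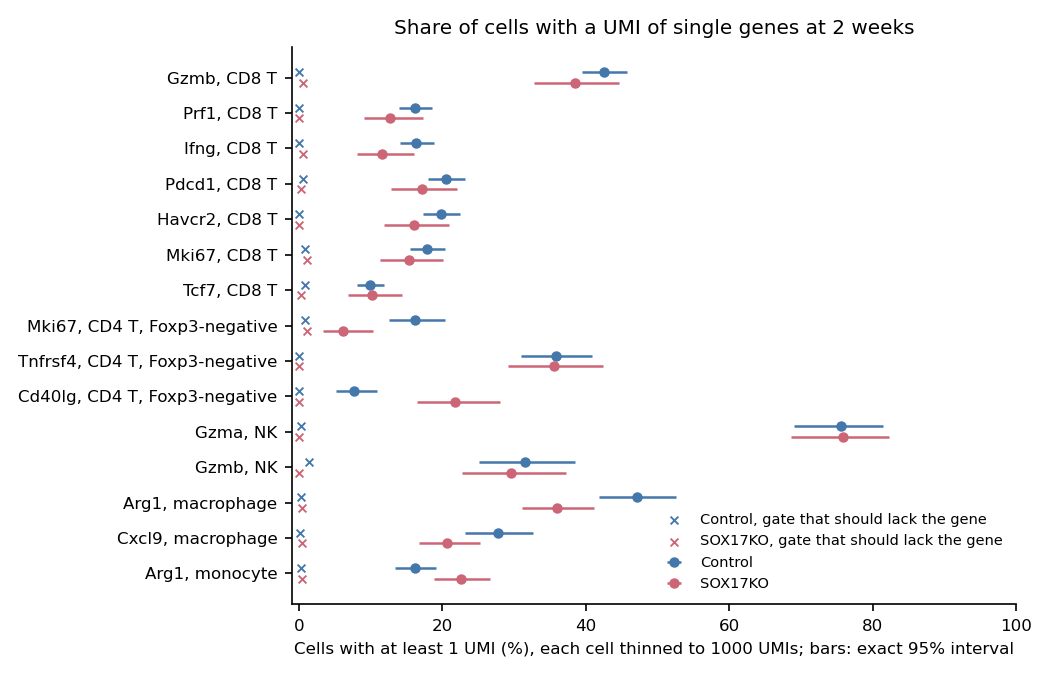
Percent of cells with at least 1 UMI of a gene (x axis) after thinning each cell to 1000 UMIs, for gene and gate pairs (y axis) in Control (blue) and SOX17KO (red), with exact 95% intervals; crosses give the same percent in a gate that should lack the gene. The intervals do not overlap for Mki67 (16.2% and 6.16%) and Cd40lg (7.69% and 21.8%) in CD4 T cells and for Arg1 in macrophages (47.2% and 36.0%).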

How the data were processed

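The authors deposited unnormalised UMI counts of 32285 genes for barcodes that had already been called as cells. The submitters' processing notes name Cell Ranger 6.0.1 and mm10, and the matrix header names Cell Ranger 7.0.1. How intronic reads were treated and which annotation was used are not stated. The filters removed 202 Control and 150 SOX17KO barcodes. A gate required UMIs of at least 40% of a class's markers, at least 3 of them, and a lead of 15% over related classes; this scoring was set after the data had been seen. Counts were summed per library and gate with numpy 2.4.6 and pandas 2.3.3 in Python 3.11.15, and ratios of CPM with exact conditional binomial intervals, and exact Clopper-Pearson intervals of shares, came from scipy 1.17.1. A gene counted as 2-fold different needed at least 100 UMIs over both libraries, and a gate at least 20 cells in each. TMM scaling used edgeR 4.0.16 in R 4.3.3, and figures matplotlib 3.10.9. Doublets were kept, and cells of mixed markers were left out of the gates; an alternative removed the 199 and 80 barcodes with the highest doublet scores (0.8% per 1000 barcodes, nearest neighbours from scikit-learn 1.9.0). Shares of positive cells used 1 random thinning to 1000 UMIs, which 4525 and 2868 cells reached. The ratios were tested on simulated data in which each UMI was drawn independently, so that test could not show the effect of variation between cells.

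Members, markers and gene lists were chosen with earlier results of these data known. The 32 lists hold 460 symbols, of which 3 were not matched. Genes named were the 5 higher and 5 lower per gate with the interval bound farthest from 1, and 2 to 4 of a described list, leaving out receptor segments, ribosomal and sex-linked genes and markers of other classes; further genes were named for their known role with their values already seen, and not every gene the rule gave is named. Positions are from the GENCODE annotation of mm10. With 1 library per genotype no test was run. Alternatives were the scaling, UMI minimum, gate depth and strictness, doublets, mitochondrial limit, denominator and class weights. Removing the top cell of each gene and centring by transcript length were added after the data were seen.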

Additional observations from a re-analysis of the deposited data

Results flagged for a closer look

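Class shares moved in opposite directions in different genotype pairs, each beyond its own counting error. The differences between pairs were not tested, since each pair is 1 library against 1. T cells had a log2 odds ratio (SOX17KO against Control) of -1.15 at 2 weeks and 0.87 in the untimed pair, and CD8 T cells -1.36 and 2.10. NK cells had 0.38 at 2 weeks and -2.66 in the untimed pair. Mononuclear phagocytes had 0.48 at 2 weeks, -0.14 at 1 week and -1.17 in the untimed pair.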

How the results depend on the processing

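No paired analysis was possible because each genotype had 1 library. Over all alternatives, 86 of 94 class shares and 811 of 948 gene ratios stayed within counting error. Of gene counts, 95 of 130 stayed within 1.5 times, and 313 of 380 list medians moved by under 0.1 on the log2 scale. Signs changed for 10 gene ratios that lay beyond counting error and 5 list medians that lay beyond 0.1. A further 22 signs changed among values within these limits, among them Sox17 over all cells, which turned from -1.13 to 0.61 with a mitochondrial limit of 5%. The cause of these changes was not tested, apart from the fewer UMIs or cells that an alternative leaves. Lowering the UMI minimum raised the count of genes past 2-fold. With 30 UMIs it was 1348 in all cells, 242 in NK cells, 233 in cDC1, 276 in conventional dendritic cells, 590 in fibroblasts, 187 in mature regulatory dendritic cells, 222 in neutrophils, 651 in Foxp3-negative CD4 T cells, 370 in CD8 T cells, 235 in Foxp3 T cells, 257 in Trdc T cells, 362 in macrophages and 239 in monocytes, and with no minimum 6534 in all cells, 4233 in NK cells, 4102 in cDC1, 4223 in conventional dendritic cells, 5867 in fibroblasts, 4753 in mature regulatory dendritic cells, 4914 in neutrophils, 4904 in Foxp3-negative CD4 T cells, 5729 in CD8 T cells, 4742 in Foxp3 T cells, 4933 in Trdc T cells, 4544 in macrophages and 4385 in monocytes. Gating after thinning gave 19 in NK cells, 48 in cDC1, 35 in conventional dendritic cells, 357 in fibroblasts, 87 in Foxp3-negative CD4 T cells, 13 in Foxp3 T cells and 11 in Trdc T cells. Without the top cell of each gene there were 17 in cDC1, and with 1 more marker 42 in Foxp3 T cells. Log2 odds ratios of shares after thinning were -0.60 for Foxp3-negative CD4 T cells, -1.003 for Foxp3 T cells, 0.38 for monocytes, 1.26 for neutrophils and 1.45 for mast cells or basophils. Within T cells they were 0.44 for CD4 T cells and -0.051, a change of sign, for Foxp3 T cells. Among gated cells only, T cells had -1.34. Signs changed in cells gated after thinning for Tnfsf9 (-2.62) and the heat shock list (0.63) in conventional dendritic cells, for Col1a1 (0.15) and heat shock genes (0.052) in fibroblasts, for Il4 (0.36) and Hspa1b (0.26) in CD4 T cells, and for Spp1 in macrophages (0.0058). They also changed for Gzmb (0.33), Ifng (0.49), Tcf7 (-0.25), Cd74 (2.06), the naive and central memory list (-0.24) and the MHC class II list (1.79) in CD8 T cells, the last also without doublet-scored barcodes (0.24). Weighted to the Control shares, Jchain turned to -2.67. In unthinned CD8 T cells the share with a UMI differed (SOX17KO minus Control, percentage points) by -8.78 for Prf1, -10.4 for Ifng, -15.5 for Pdcd1, -11.8 for Havcr2 and 5.72 for Tcf7. TMM scaling moved the median of all genes by over 0.1 in neutrophils alone, by 0.107 on the log2 scale. Centring within 10 groups of transcript length, the lowest of which also holds genes over 500 bases, kept every count of genes within 1.5 times. It moved 0 of 156 gene and list values past 1.5 times, by at most 0.35 on the log2 scale, and 3 changed sign: the MHC class II median in conventional dendritic cells (0.0060) and Hspe1 in CD8 T cells (0.10) and monocytes (0.15). Genes at few UMIs and gates under about 100 cells are limited by counting error.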
